A study of Rattus norvegicus and Mus musculus with 9 samples.

Results

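The insulin-like growth factor (IGF) ligands and their binding proteins were examined in rat embryonic stem (ES) cells and rat embryonic fibroblasts, with mouse ES cells beside them. The set was defined by name as 9 genes, the ligands Igf1 and Igf2, the receptor Igf2r and the binding protein genes Igfbp2 to Igfbp7. All 9 were found among 14506 named genes on the rat array and among 19938 on the mouse array, each represented by 1 probe set in the rat table. ES cells are pluripotent lines taken from early embryos, and fibroblasts are the matrix-producing cells of connective tissue. Total RNA from each of the 3 groups was hybridized to 3 arrays, and signals are given on the log2 scale as deposited. The rat ES cells were DA strain cells grown in a medium named 3I, a name used for media that hold inhibitors of GSK3, MEK and the FGF receptor. The rat fibroblasts, also DA, were grown in GMEM, a basal medium, to which fetal bovine serum was added. The mouse ES cells were C57/BL6 cells grown as the fibroblasts were but with LIF (leukaemia inhibitory factor), and their feeder cells were taken out before RNA was prepared, which is not stated for the rat ES cultures. Medium and cell type differed together between the rat groups and cannot be told apart. Whether replicate arrays stand for separate cultures is not stated, and the p-values then reflect only the spread between arrays, which may be technical.

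IGF1 and IGF2 are small secreted hormones that signal growth and survival through the IGF1 receptor, a tyrosine kinase related to the insulin receptor. The product of Igf2r binds IGF2 without a kinase of its own and carries it, together with enzymes tagged with mannose 6-phosphate, to the lysosome. The IGF binding proteins are secreted carriers that hold the ligands in the medium or matrix, and proteases release the ligands by cutting them. Igf2, its neighbour H19 and Igf2r are classic imprinted genes in rodents, expressed mainly from 1 parental copy. In human ES cell cultures, IGF2 made by surrounding fibroblast-like cells is known to support the pluripotent cells.

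In rat ES cells, 1 member of the set was higher than in fibroblasts, Igfbp2, and 5 were lower, Igf1, Igfbp3, Igfbp4, Igfbp6 and Igfbp7. A gene was called higher or lower where limma gave a Benjamini-Hochberg adjusted p under 0.05 over all genes and the difference was at least 2-fold. Over all 14506 genes, 10.6% were called higher and 10.1% lower, 20.7% in either direction. Igf2, Igf2r and Igfbp5 passed the adjusted p but were less than 2-fold lower. With the adjusted p alone, 1 member was higher and 8 were lower, where 56.3% of all genes passed, 30.9% as higher and 25.5% as lower. At 4-fold or more, 0 members were higher and 2 lower, Igfbp3 and Igfbp7, against 2.61% and 4.25% of all genes, 6.86% in either direction. The signals of the rat ES and fibroblast arrays did not overlap for any of the 9 members, as for 61.5% of all genes. The median log2 difference of the members was -1.28, against -0.00069 over all genes. In RNA from whole cultures, fewer cells that express a gene and less RNA per cell cannot be told apart.

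The arrays were set against markers of the labelled cells. All 8 measured pluripotency markers were called higher in rat ES cells, with a median log2 difference of 5.46. Of 12 fibroblast markers 11 were called lower and none higher (median -4.54), the exception being Dcn at -0.23. Dcn lay below the array medians in the fibroblasts as well, at a mean of 4.06, so its difference says little. Fibroblast markers were not absent from the rat ES arrays: their summed linear signal there was 3.69%, 4.72% and 5.91% of the fibroblast mean on arrays 1, 2 and 3. Of the 12, Pdgfra, Lum and Dcn lay below the array median on every rat ES array. Of 10 primitive endoderm markers, 8 lay below the median on every rat ES array, and 2 of the 10 were called lower and none higher. Single markers of other lineages were called higher in rat ES cells: Cdx2 at 3.80 of 5 trophoblast markers, Tie1 at 3.0 of 4 endothelial markers, and Laptm5 at 3.87 and Gata1 at 3.07 of 5 blood markers. In the same lists Gata3 (trophoblast) and Tek (endothelial) were called lower. Of 5 neural markers 3 were called lower, as were 2 of 6 muscle markers, and none in either list was higher. The part of such cells in the results was not tested. Rat array medians, over all probe sets, lay between 5.71 and 5.74, and precision is limited by the number of arrays.

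**Figure D1:**
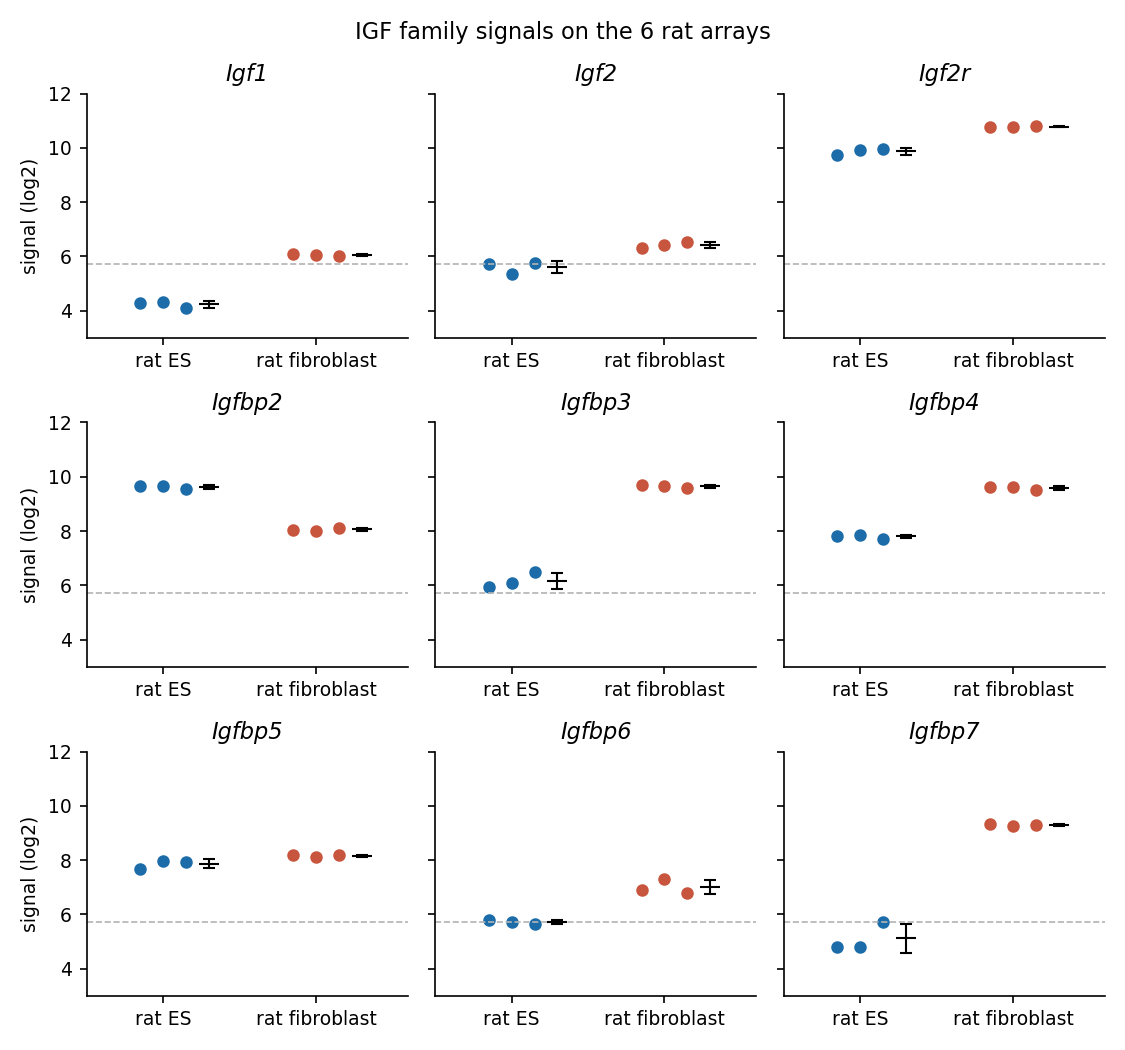
Signals of the 9 genes on each rat array (log2), with rat ES arrays left and fibroblast arrays right in each panel. Points are single arrays, black bars the mean and SD (n = 3) and the dashed line the median of the rat array medians. Only Igfbp2 is higher in rat ES cells, and Igfbp3 and Igfbp7 are the furthest apart.

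Of the ligands, Igf1, the growth factor that mediates most postnatal actions of growth hormone, had signals of 4.29, 4.33 and 4.08 in rat ES cells, against 6.07, 6.05 and 6.0 in fibroblasts. All 3 rat ES signals lay below the array medians, while the fibroblast signals lay above them. Igf1 was 3.50-fold lower in rat ES cells (log2 difference -1.81, SE 0.081, limma adjusted p = 2.61e-07). Because background was not measured here, the size of a difference with signals below the array median is uncertain.

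Igf2, the main fetal growth factor of the pair, had signals of 5.72, 5.35 and 5.76 in rat ES cells, against 6.32, 6.40 and 6.51 in fibroblasts. The groups stood apart by 0.56, a gap narrower than that of any called member. The log2 difference was -0.80 (SE 0.12, 95% interval -1.07 to -0.53, limma adjusted p = 0.000363). The interval takes in a 2-fold decrease as well as smaller ones.

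Igf2r, which clears IGF2, gave signals of 9.73, 9.94 and 9.97 in rat ES cells, against 10.76, 10.76 and 10.79 in fibroblasts. It was well above the array medians in both groups, and every fibroblast array was above every rat ES array. The log2 difference was -0.89 (SE 0.080, 95% interval -1.08 to -0.71, limma adjusted p = 1.67e-05), which again takes in a 2-fold decrease. For both Igf2 and Igf2r the estimate was under 2-fold and negative.

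Of the 6 binding protein genes, 1 was called higher and 4 lower, with a median log2 difference of -1.53. The RefSeq windows of 250 bases upstream of the annotated start are shown for 5 of them, since the windows belong to genes that differed by unlike amounts: the member called higher, its chromosomal neighbour with the smallest difference, and 3 members called lower. They are read from the GRCr8 build, 5′ to 3′ on the gene's strand. Igfbp2 lies at chr9:81864561-81864810 on the plus strand and Igfbp5 at chr9:81914188-81914437 on the minus strand. The windows of Igfbp3, at chr14:86277945-86278194 on the minus strand, Igfbp4, at chr10:84491221-84491470 on the plus strand, and Igfbp7, at chr14:31091486-31091735 on the plus strand, follow. Capitals mark matches, on either strand, to any of 4 motifs. The letters of the TATA box searched were TATAAA. Those of the GC box were GGGCGG. Those of the CCAAT box were CCAAT. Those of the AP-1 motif were TGANTCA, and in the windows shown no match overlapped that of another motif.
Igfbp2: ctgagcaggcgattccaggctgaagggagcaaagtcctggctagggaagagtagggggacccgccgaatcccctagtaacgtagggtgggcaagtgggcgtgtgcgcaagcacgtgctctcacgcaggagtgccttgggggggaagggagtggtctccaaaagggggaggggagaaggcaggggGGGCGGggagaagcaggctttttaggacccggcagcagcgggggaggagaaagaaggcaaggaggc
Igfbp5: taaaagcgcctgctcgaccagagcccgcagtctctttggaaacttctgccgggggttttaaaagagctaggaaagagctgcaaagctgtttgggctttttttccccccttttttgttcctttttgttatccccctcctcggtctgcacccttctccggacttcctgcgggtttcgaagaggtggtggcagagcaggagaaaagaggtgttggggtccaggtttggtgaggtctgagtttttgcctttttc
Igfbp3: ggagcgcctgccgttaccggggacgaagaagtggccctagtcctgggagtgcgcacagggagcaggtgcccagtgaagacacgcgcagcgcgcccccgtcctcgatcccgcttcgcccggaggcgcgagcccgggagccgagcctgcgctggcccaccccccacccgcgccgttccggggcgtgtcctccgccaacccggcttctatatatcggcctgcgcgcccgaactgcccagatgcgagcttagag
Igfbp4: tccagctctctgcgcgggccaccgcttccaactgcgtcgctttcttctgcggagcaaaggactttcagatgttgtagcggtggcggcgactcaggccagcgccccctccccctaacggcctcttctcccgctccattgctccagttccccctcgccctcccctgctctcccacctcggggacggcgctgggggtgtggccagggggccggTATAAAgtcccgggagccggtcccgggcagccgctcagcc
Igfbp7: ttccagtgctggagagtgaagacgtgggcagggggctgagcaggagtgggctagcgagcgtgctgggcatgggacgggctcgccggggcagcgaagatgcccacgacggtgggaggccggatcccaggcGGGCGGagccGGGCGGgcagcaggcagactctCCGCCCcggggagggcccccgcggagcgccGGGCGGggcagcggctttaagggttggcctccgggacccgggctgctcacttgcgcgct
The Igfbp2 window held 1 GC box, the Igfbp7 window 4 and the Igfbp4 window 1 TATA box, while none of the letters searched were in the windows of Igfbp3 and Igfbp5. Of 33469 rat promoter windows of the same length, 30.5% held a GC box, 12.9% a TATA box, 34.0% a CCAAT box and 6.34% an AP-1 match. The windows of Igfbp3 and Igfbp7 were rich in CpG, with 31 and 26 against a median of 5 over all windows. Igfbp4 had 21, Igfbp2 11 and Igfbp5 8. Of the other members called lower, Igfbp6 had 5 and Igf1 3, so CpG counts did not go with the call. The window of Igf2r, whose difference was under 2-fold, had 23, and the windows of Igf2 had 7 and 15. A match to these letters is a description of the sequence and not a binding site.

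Igfbp2, a carrier with a preference for IGF2 that is abundant in the fetus, had signals of 9.67, 9.65 and 9.56 in rat ES cells, against 8.05, 8.01 and 8.12 in fibroblasts. Both groups lay well above the array medians, and the arrays of each group lay close together. Igfbp2 was 2.96-fold higher in rat ES cells (log2 difference 1.57, SE 0.068, limma adjusted p = 2.17e-07).

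Igfbp3, the main carrier of IGFs in adult serum, had signals of 5.93, 6.07 and 6.48 in rat ES cells, against 9.71, 9.66 and 9.59 in fibroblasts. The rat ES signals were near the array medians on arrays 1 and 2, higher on array 3, and spread more widely than the fibroblast arrays. The gene was 11.3-fold lower in rat ES cells (log2 difference -3.49, SE 0.13, limma adjusted p = 1.03e-07).

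Igfbp7, a secreted protein with weak IGF binding that is laid down in the matrix, showed the widest gap of the set. Its signals were 4.80, 4.80 and 5.73 in rat ES cells, against 9.34, 9.25 and 9.29 in fibroblasts. Rat ES arrays 1 and 2 lay well below their array medians, and array 3, at about its median, stood 0.93 above the mean of the other two. The gene was 18.1-fold lower (log2 difference -4.18, SE 0.23, limma adjusted p = 7.56e-07), and the difference was -4.49 without rat ES array 3.

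Igfbp4, a binding protein known mainly for restraining IGF action until it is cleaved, had signals of 7.82, 7.86 and 7.72 in rat ES cells, against 9.63, 9.61 and 9.50 in fibroblasts. It was 3.44-fold lower in rat ES cells (log2 difference -1.78, SE 0.072, limma adjusted p = 1.40e-07), and its signal stayed above the array medians in both groups. Igfbp6, which binds IGF2 far more tightly than IGF1, had signals of 5.79, 5.73 and 5.64 in rat ES cells, against 6.89, 7.31 and 6.80 in fibroblasts. Its rat ES signals were close to the array medians, and fibroblast array 2 stood above the other two. The decrease was 2.43-fold (log2 difference -1.28, SE 0.13, 95% interval -1.58 to -0.98, limma adjusted p = 3.56e-05).

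Igfbp5, a binding protein that adheres to matrix, differed least, with signals of 7.67, 7.98 and 7.92 in rat ES cells, against 8.17, 8.12 and 8.18 in fibroblasts. The groups stood apart by 0.14, less than the range of 0.31 among the rat ES arrays. The log2 difference was -0.30 (SE 0.090, 95% interval -0.51 to -0.09, limma adjusted p = 0.0204). The interval leaves out a 2-fold change in either direction. The adjusted p was 0.0552 without fibroblast array 1 and 0.0583 without fibroblast array 3.

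**Figure D2:**
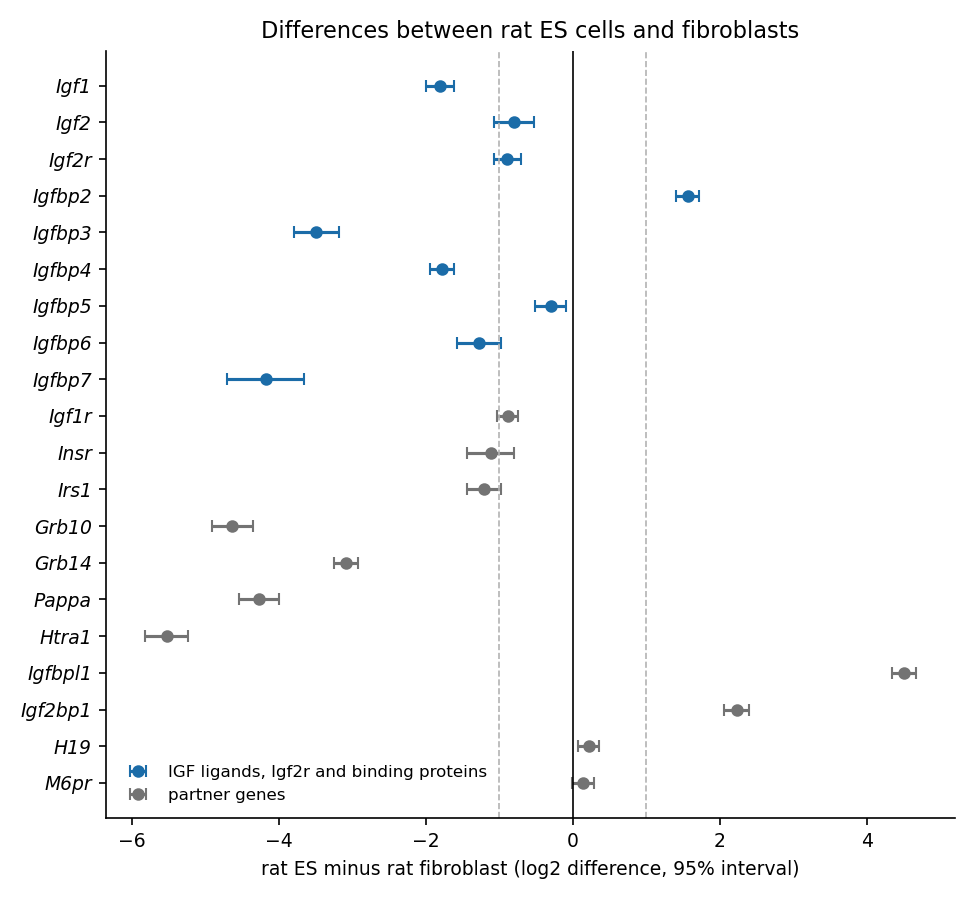
Log2 differences, rat ES minus rat fibroblast, for the 9 genes (blue) and for partner genes described in the text (grey), with 95% intervals from limma. Dashed lines mark a 2-fold difference. Among the 9 genes, the intervals of Igf2, Igf2r and Igfbp6 cross a 2-fold line, and those of the 2 furthest members, Igfbp3 and Igfbp7, lie beyond -3.

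Igfbp7 and Igfbp3 varied most of the members among the rat ES arrays, followed by Igf2 (ranges 0.93, 0.55 and 0.40). Fibroblast markers varied as well. On array 3, 10 of 12 fibroblast markers were above the mean of arrays 1 and 2, with a median of 0.44 (log2) and a highest value of 0.67; the lowest of the 12 was -0.07. Igfbp7 was higher there by 0.93 and Igfbp3 by 0.48, and Igf2, Igf2r and Igfbp5 were higher by 0.22, 0.14 and 0.09. Igf1, Igfbp2, Igfbp4 and Igfbp6 were instead lowest on array 3, at -0.23, -0.10, -0.12 and -0.12 from the mean of the other arrays. As a share of the fibroblast mean, on a linear scale, Igfbp7 stood at 4.44%, 4.46% and 8.46% on rat ES arrays 1, 2 and 3, beside 3.69%, 4.72% and 5.91% for the summed fibroblast markers. Background was not measured here, so the Igfbp7 shares on arrays 1 and 2, from signals well below the array medians, are uncertain. Taken likewise, the shares of Igfbp3 were 7.58%, 8.33% and 11.1%. For Igfbp4 they were 29.5%, 30.3% and 27.5%, well above those of the summed markers. Single markers ranged widely around that sum. Dcn and Lum had log2 differences of -0.23 and -1.91, beside -1.78 for Igfbp4. Their fibroblast means, 4.06 and 5.57, lay below the array medians, while that of Igfbp4 was 9.58. The sizes of the Dcn and Lum differences are therefore uncertain and not comparable with that of Igfbp4. The other markers lay at -2.57 (Pdgfra) or lower. The part of fibroblast-type RNA in these signals was not tested.

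**Figure D3:**
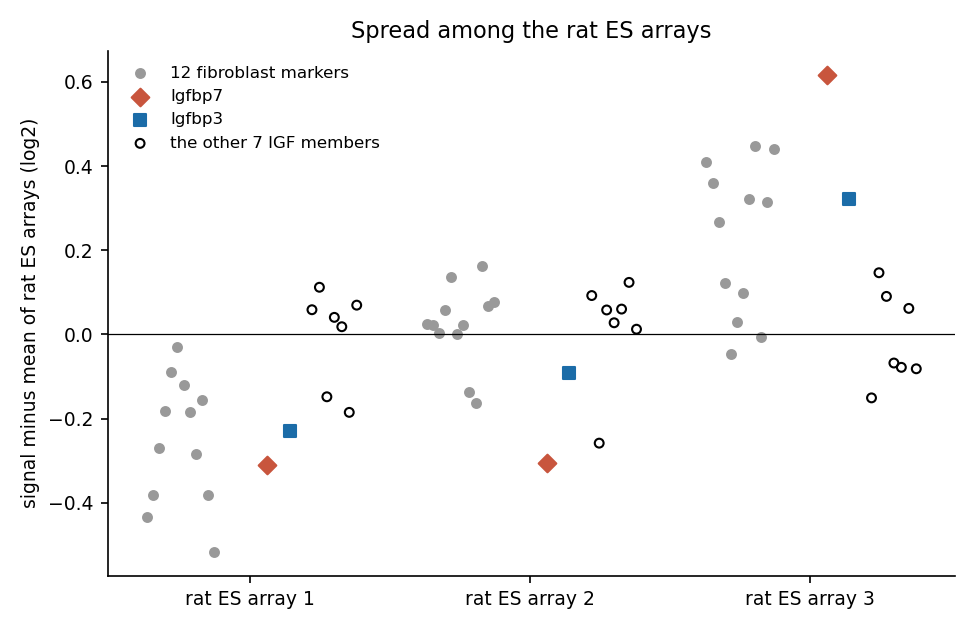
Signals on each rat ES array minus the mean of the gene over the 3 rat ES arrays (log2), for 12 fibroblast markers (grey), Igfbp7 (diamonds), Igfbp3 (squares) and the other 7 genes of the set (open circles). Points within an array are spread sideways for legibility. On array 3, Igfbp3, Igfbp7 and most markers lie above 0, while 4 of the other 7 genes lie below it.

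Genes near the members in the RefSeq gene order were looked up next. Igfbp2 and Igfbp5 are direct neighbours, and their log2 differences were 1.57 and -0.30. Igfbp3 is next to Igfbp1, whose product is a liver-type binding protein and whose signals of 4.30 in rat ES cells and 4.36 in fibroblasts lay below the array medians (difference -0.06, limma adjusted p = 0.57). On its other side the nearest measured gene was Hus1, a DNA damage checkpoint gene, at 1.51, beyond 11 unmeasured genes. The nearest measured genes to Igf2 were H19 and Ins2. The H19 transcript, a noncoding RNA, had mean signals of 9.75 in rat ES cells and 9.53 in fibroblasts (log2 difference 0.22, limma adjusted p = 0.0162), and its other probe set differed by 0.08. Ins2, an insulin gene, had means of 4.90 in rat ES cells and 4.96 in fibroblasts, below the array medians. H19 was thus well above the array medians in both cell types, while Igf2 was near them in rat ES cells.

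The nearest measured genes to Igf2r, Mas1 and Slc22a2, differed by -0.16 and 0.11 and were not called. Beside Igfbp4, Top2a, a topoisomerase of dividing cells, was higher in rat ES cells at 1.61, and Tns4 was at 0.13. Soat2 beside Igfbp6 was higher at 1.55 and Spryd3 differed by 0.41. Igf1 had Nt5dc3 on one side at -1.10, beyond 18 unmeasured genes, and Parpbp on the other at 1.04, both called. Around Igfbp7 the nearest measured genes were Adgrl3 at -1.19, which was called, and Polr2b at 0.99, with 22 and 4 unmeasured genes in between. The outer neighbours of the Igfbp2 and Igfbp5 pair, Rpl37a at 0.07 and Tnp1 at -0.05, were not called.

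Among all genes, those with the most similar values over the 6 rat arrays were sought for each called member, as the smallest mean absolute difference after centring each gene on its mean. Igf1 and Igfbp4 were close to each other, at 0.033 on the log2 scale. Ext1 was next for Igf1 at 0.042, and ST7 was nearest to Igfbp4 at 0.026. For Igfbp2 they were Cox7b and Chaf1b, both at 0.028. Igfbp3 was most like Anxa5 (0.049) and Pmepa1 (0.072), and Igfbp6 most like Marcks (0.074) and Spaca6 (0.077). Igfbp7 was most like Eln, the elastin gene, at 0.13, and Rnase4 at 0.14. With 2 groups of arrays, such a match rests mostly on the size of the difference between the groups.

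The receptors that transmit the IGF signal were measured beside their ligands. Igf1r, the main signalling receptor, had signals of 8.90, 8.86 and 8.87 in rat ES cells, against 9.77, 9.77 and 9.75 in fibroblasts. The arrays of each group lay close together, and the difference of -0.89 (SE 0.061, 95% interval -1.03 to -0.75, limma adjusted p = 3.04e-06) was under 2-fold. The insulin receptor gene Insr was called lower at -1.12, but stood at -0.96, under 2-fold, without rat ES array 3. The insulin genes Ins1 and Ins2 and the orphan receptor gene Insrr were below the array medians in both groups and were not called. Of these 5 genes Insr was the 1 called, and their median difference was -0.07. Beside the counts in this and the following lists, 10.6% of all genes were called higher and 10.1% lower, 20.7% in either direction.

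Of 9 measured adaptors that bind the activated receptors, 3 were called lower and 1 higher, with a median log2 difference of -0.26. Grb10, an imprinted adaptor that dampens insulin and IGF signalling, had signals of 6.01, 6.51 and 6.19 in rat ES cells, against 10.87, 10.88 and 10.86 in fibroblasts. Its groups were far apart, with a log2 difference of -4.63 (SE 0.12, limma adjusted p = 1.40e-08). The related adaptor gene Grb14 was lower at -3.09 and the docking protein gene Irs1 at -1.21, while Gab1, another docking protein gene, was higher at 1.53. Of 12 measured genes of the PI3K, AKT and FOXO branch, 4 were called higher and 2 lower (median 0.69). The regulatory subunit gene Pik3r3 was lower at -2.94 and the kinase gene Akt1 at -2.0, while the catalytic subunit gene Pik3cb was higher at 1.21. Pdpk1 (1.16), Foxo1 (1.13) and Mtor (1.05) were the other genes called higher, and Mtor stood at 0.95 after quantile normalization.

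Of 12 measured proteases that cut binding proteins, with their inhibitors, 6 were called lower and 1 higher, Adam9 at 1.47 (median -1.22). Pappa, the metalloprotease known for cleaving IGFBP4, had signals of 4.81, 4.77 and 4.41 in rat ES cells, against 8.82, 8.93 and 9.05 in fibroblasts. The rat ES signals lay below the array medians, and the log2 difference was -4.27 (SE 0.12, limma adjusted p = 1.90e-08). Igfbp4 and the protease known to cleave its product were both called lower in rat ES cells. The inhibitors of PAPPA differed from each other: Stc1 was lower at -1.70, with rat ES signals below the array medians, and Stc2 was at 8.60 in rat ES cells and 8.17 in fibroblasts (difference 0.43, limma adjusted p = 0.00154), under 2-fold. Htra1, a secreted serine protease that itself carries an IGFBP-type domain, was lower at -5.53, and Adamts1, another matrix protease gene, at -4.92.

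Genes of proteins that share the IGFBP-type domain were mostly lower too, and the ternary complex gene Igfals was counted with them. Of 11 measured, 8 were called lower and 1 higher (median -2.21). Besides Htra1, the matricellular gene Ccn2 was lower at -4.47. Its mean was 7.94 ± 0.34 in rat ES cells, against 12.41 ± 0.060 in fibroblasts (SD, n = 3 each), so that the rat ES arrays varied more. The 1 gene called higher was Igfbpl1, whose product resembles the binding proteins at its amino end. It had signals of 9.69, 9.59 and 9.64 in rat ES cells, against 5.04, 5.19 and 5.16 in fibroblasts. The fibroblast signals lay below the array medians and the difference was 4.51 (SE 0.071, limma adjusted p = 2.21e-09), beside 1.57 for Igfbp2.

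Of 8 measured regulators of Igf2, 3 were called higher and 3 lower (median -0.08). Igf2bp1, which encodes an RNA-binding protein named for binding Igf2 messenger RNA, had signals of 10.65, 10.57 and 10.44 in rat ES cells, against 8.38, 8.30 and 8.30 in fibroblasts. It was higher, at 2.23 (SE 0.075, limma adjusted p = 5.43e-08) and lay far above the array medians in both groups. Lin28a, another RNA-binding protein gene of early embryonic cells, was higher at 3.33, and Ctcf, whose product binds the imprinting control region between H19 and Igf2, at 1.02. Ctcf was under 2-fold, at 0.94, after quantile normalization, and also without rat ES array 2 or fibroblast array 3. Hmga2, a chromatin protein gene, was lower at -2.31, Plag1, a zinc finger activator of Igf2, at -1.99, and the related Plagl1 at -1.89. Of 9 genes of mannose 6-phosphate sorting, which share the route of IGF2R to the lysosome, the adaptor gene Gga3 was called higher, at 1.45, and none lower (median 0.47). M6pr, the other mannose 6-phosphate receptor gene, had means of 10.39 in rat ES cells and 10.25 in fibroblasts (difference 0.14, 95% interval -0.01 to 0.29, limma adjusted p = 0.0997).

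**Figure D4:**
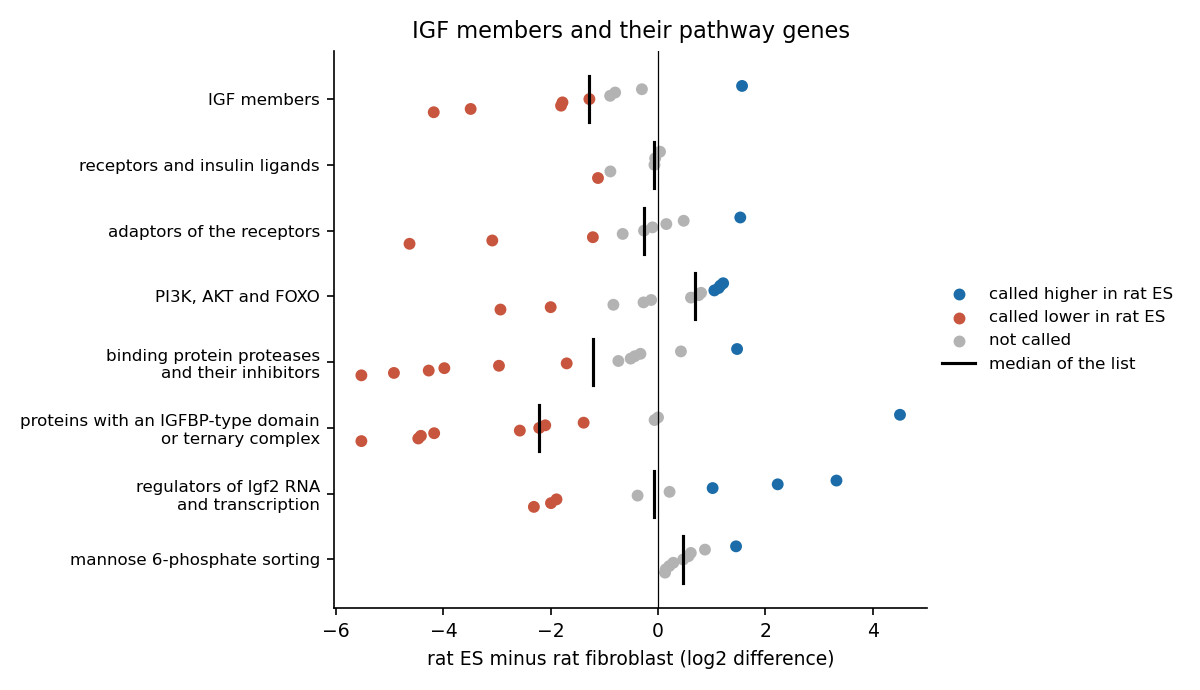
Log2 differences, rat ES minus rat fibroblast, of every measured gene in the set and in 7 lists of pathway genes. Each point is a gene, coloured by its call, and black bars are list medians. The binding protein proteases and the genes with an IGFBP-type domain have medians of -1.22 and -2.21, and the set has -1.28.

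Mouse ES cells were measured on another array type, so the members were compared as percentiles within each array among 12114 symbols found on both. Probe sets for a gene differ between the array types, and a percentile depends on how well each responds. Species, strain, medium and array type differed together between the rat and mouse ES cells and cannot be told apart. The deposited mouse values of 7 of the 9 members were the same on all 3 arrays, as were those of 10850 of 19938 mouse genes, so the spread over mouse arrays is not that of independent samples and no test was made. Over all shared symbols, the arrays of rat ES and mouse ES cells did not overlap in 87.4%, with rat ES cells higher in 42.5% and lower in 44.9%. Of the 9 members 3 were higher, 5 lower and 1 overlapped. Markers of pluripotency had a median percentile of 96.9 in rat ES cells and 95 in mouse ES cells, against 20.1 in rat fibroblasts.

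Igf2 differed most in percentile, with a mean of 34.1 in rat ES cells (29.7 to 36.3 over arrays) and 88.2 in mouse ES cells, with 45.2 in rat fibroblasts. The mouse percentile was thus above those of both rat groups. Igfbp5 went the other way, at 69.1 in rat ES cells and 21.4 in mouse ES cells, with 75.7 in rat fibroblasts. Igfbp2 was high in both kinds of ES cell, at 92.7 in rat ES cells and 97.3 in mouse ES cells, and lower in rat fibroblasts at 74.1. Igf2r was likewise high, at 94.3 in rat ES cells and 84.0 in mouse ES cells, with 97.7 in rat fibroblasts.

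Igfbp3 was at 42.7 in rat ES cells and 63.9 in mouse ES cells, with 92.7 in rat fibroblasts. Igfbp7 was at 25.3 in rat ES cells and 46.4 in mouse ES cells, with 90.0 in rat fibroblasts. For both genes the ES cells of either species lay below the rat fibroblasts. The median percentile of 11 shared fibroblast markers was 67.3 in rat ES cells and 47.8 in mouse ES cells, against 98.5 in rat fibroblasts. Igfbp4 was at 67.9 in rat ES cells and 47.4 in mouse ES cells, again under the 92.2 of rat fibroblasts. Igf1 was at 11.4 in rat ES cells and 24.4 in mouse ES cells, with 39.6 in rat fibroblasts, and Igfbp6 overlapped between the ES cells at 36 in rat and 34.6 in mouse, with 55.1 in rat fibroblasts. That overlap rested on rat ES array 3: without it Igfbp6 was higher in rat ES cells with no overlap, by 2.27 percentile points in place of 1.38, and without rat ES array 1 the difference was 0.724. Among partner genes, Igf2bp1 was high in both, at 97.2 in rat ES cells and 98.3 in mouse ES cells, whereas Grb10 was at 43.7 in rat ES cells and 95.5 in mouse ES cells. Igfbpl1 was at 92.8 in rat ES cells and 36.1 in mouse ES cells.

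**Figure D5:**
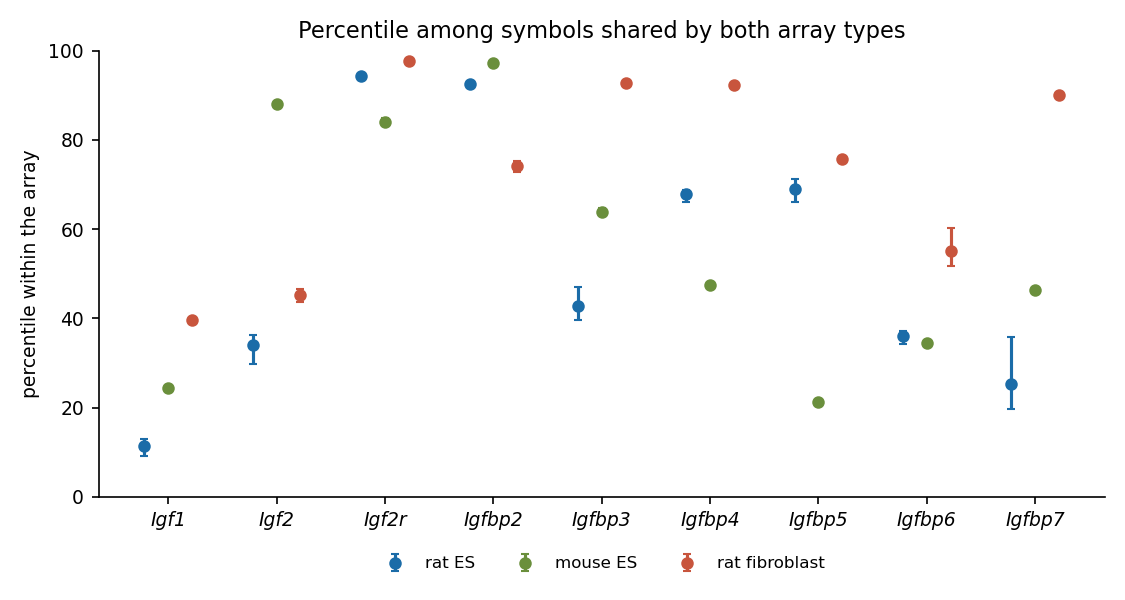
Percentile of each gene within the array, among 12114 symbols shared by both array types, for rat ES cells, mouse ES cells and rat fibroblasts. Points are means over 3 arrays and bars run from the lowest to the highest array. Igf2 is at 34.1 in rat ES cells and 88.2 in mouse ES cells, and Igfbp2 is above 90 in both.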

How the data were processed

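The 2 tables deposited by the authors hold log2 values, 1 per probe set and array: 6 rat arrays in one and 3 mouse arrays of another type in the other. The log2 scale was read from the range of values. How the authors corrected background and normalized, and on which build, is not given in the sources used. Genes were named from the platform annotation supplied with the tables. Of 29215 rat probe sets, 15310 had 1 symbol, 323 several and 13582 none listed, and of 35557 mouse probe sets 21789, 1621 and 12147. Only probe sets with 1 symbol were used, and the probe set with the highest mean was kept for each gene. The rat groups were fitted by limma 3.58.1 (R 4.3.3; group only, no filter), with p adjusted over 14506 genes. The fit was tested on simulated data.

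The members, pathway lists and markers were chosen with earlier results of these data known. Named genes are the members, 14 fixed partners where measured, the 3 called genes with the largest difference in each pathway list, the nearest measured neighbours in the RefSeq GRCr8 gene order and the 2 most similar genes of each called member. Irs2, Igf2bp2 and Igf2bp3 were not among the named rat probe sets used. Pdpk1, Foxo1, Mtor, Adam9, Ctcf, Plag1, Plagl1, Ins1, Insrr and Igfals were named after their values were seen, as were the marker genes. Promoter windows and sequences are from RefSeq. The replicate numbers did not pair the arrays: deviations of same-numbered arrays correlated at -0.00044, 0.031 and -0.0003. Alternatives were another normalization, centring, a filter on level, averaged probe sets, other limma settings and thresholds, a replicate block and leaving out each array.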

Additional observations from a re-analysis of the deposited data

How the results depend on the processing

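All 9 members kept their direction, and their call by adjusted p and 2-fold together, in each of 12 other fits, although the adjusted p of Igfbp5 alone passed 0.05 without fibroblast array 1 (0.0552) or 3 (0.0583). These were quantile normalization, median centring, leaving out the lowest 25% of genes by level, averaged probe sets, limma with trend and robust settings, a replicate block and the loss of each of the 6 rat arrays. The filter on level, averaged probe sets, the trend and robust settings and the block left every member's log2 difference unchanged. In those fits direction and fold were fixed, and only the adjusted p could move. Leaving out 1 array gave log2 differences of -4.49 to -4.02 for Igfbp7, -3.65 to -3.38 for Igfbp3 and 1.54 to 1.6 for Igfbp2. The replicate block pairs arrays that share only a number. With it, 1 member was called higher and 5 lower, and 1538 and 1458 of all genes, as without it. Because the block leaves log2 differences unchanged in this balanced design, only the adjusted p could have altered these counts. The counts depended on the fold threshold by construction. With no fold threshold, 8 members were lower, 23 pathway genes were higher and 32 lower, and 4478 of all genes were higher and 3694 lower. At 4-fold, 0 members were higher and 2 lower, 3 pathway genes were higher and 16 lower, and 378 of all genes were higher and 617 lower. Among the 65 measured pathway genes, 11 were called higher and 22 lower at 2-fold. Together these were 50.8% of them, against 20.7% of all genes. The pathway lists were chosen with earlier results of these data known, so these shares are a description and not a test. The share called was 20% for receptors and insulin ligands and 11.1% for mannose 6-phosphate sorting, not above that of all genes. In the other lists it lay between 44.4% and 81.8%. In the comparison of percentiles, Igfbp6 turned from 1.38 (rat ES minus mouse ES) to -3.0 when percentiles were taken among all named genes of each table, and the cause was not tested. The same choice gave 3 members higher and 6 lower in rat ES than in mouse ES cells, against 3 and 5 among shared symbols, and 4 were higher without rat ES array 3. It also gave 6.37 in place of 10.3 for Igf2r, 13.4 in place of 20.5 for Igfbp4, 40.1 in place of 47.7 for Igfbp5 and -16.6 in place of -13.0 for Igf1. The number of arrays, and signals near or below the array medians for Igf1, Igf2, Igfbp3, Igfbp6 and Igfbp7 in rat ES cells, limit the sizes given.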
